A study of Homo sapiens with 5 samples.

Results

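The nuclear-encoded genes of the mitochondrial respiratory chain were examined in a table of H3K27ac ChIP-seq peaks from HCT116 cells. H3K27ac is the acetylation of lysine 27 of histone H3, a mark of active promoters and enhancers. The genes were chosen by symbol from the protein-coding genes of GENCODE release 44: the NDUFA, NDUFB, NDUFC, NDUFS and NDUFV genes of complex I, SDHA to SDHD of complex II, the UQCR genes of complex III, the COX4 to COX8 genes of complex IV and the ATP5 genes of ATP synthase, which is complex V. A gene was given a peak when the center of a peak lay within 1 kb of a start of any of its transcripts, and the peak with the highest mean signal over all libraries was kept. The symbols matched 89 genes, of which 82 had a peak. NDUFA4 is a complex IV subunit despite its symbol, and it was counted by its symbol under complex I, as was its copy NDUFA4L2. These 82 genes held 80 different peaks of the 20087 in the table. NDUFC2 shared its peak with the read-through gene NDUFC2-KCTD14, and ATP5MF shared its peak with the read-through gene ATP5MF-PTCD1.

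All libraries came from HCT116 CMV-osTIR1 RAD21-mAC, a derivative of a human colorectal carcinoma line that carries the plant auxin receptor osTIR1 and a degron-tagged cohesin subunit RAD21. Both groups were kept in 0.1% DMSO for 6 h, and no auxin treatment is named for either. The IFN-β group (2 libraries) then received 1000 unit/ml IFN-β for 1 h, while the control group (2 libraries) is labelled as time 0 and received none, so 1 h of culture and IFN-β cannot be told apart. Chromatin of 500000 cells fixed in 1% formaldehyde was used per ChIP, and 1 input library was made. The sources used here do not say whether the libraries of a group came from separate cultures.

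The respiratory chain sits in the inner mitochondrial membrane. Complexes I and II pass electrons from NADH and succinate to ubiquinone, complex III passes them on to cytochrome c, and complex IV passes them to oxygen. Complexes I, III and IV pump protons across the membrane, and ATP synthase uses the returning protons to make ATP. A few core subunits are encoded by mitochondrial DNA, but most subunits are encoded in the nucleus, so their promoters carry histones and can be seen by ChIP-seq. NRF1, the ETS family factor GABP and YY1 are transcription factors known for binding promoters of such genes.

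The promoters of respiratory chain genes held the motifs of these factors more often than other promoters did. For the ETS and YY1 motifs this was not particular to them, since the housekeeping sets compared at the end also exceeded other promoters. Some of the sequences are shown here before the signal values. Motifs were sought on both strands in the 300 bases from 250 before to 50 after the start of the canonical transcript. The NRF1 motif GCGCANGCG was found at 25 of the 82 genes (30.5%) and at 16.1% of the 11649 other protein-coding genes with a peak, called other promoter genes below. Its stricter form GCGCATGCG, contained in the former, was found at 10 genes (12.2%) against 4.05%. The following stretches lie before the canonical start in the GRCh38 reference, are read in the direction of the gene, and have the NRF1 motif in capitals. They were chosen because the genes are described with their values later.
SDHA, chr5:218154-218285, plus strand: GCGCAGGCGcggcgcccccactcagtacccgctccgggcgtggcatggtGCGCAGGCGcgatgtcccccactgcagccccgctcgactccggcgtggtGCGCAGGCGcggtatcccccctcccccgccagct
NDUFB4, chr3:120596152-120596306, plus strand: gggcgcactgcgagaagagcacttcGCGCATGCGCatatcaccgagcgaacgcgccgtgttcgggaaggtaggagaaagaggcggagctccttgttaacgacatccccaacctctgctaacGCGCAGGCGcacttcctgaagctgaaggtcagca
UQCRFS1, chr19:29213152-29213206, minus strand: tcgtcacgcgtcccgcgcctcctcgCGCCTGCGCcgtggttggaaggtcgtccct
COX6A1, chr12:120437869-120437927, plus strand: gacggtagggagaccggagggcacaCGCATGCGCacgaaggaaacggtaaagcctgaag
The SDHA stretch holds 3 separate copies of the motif. In the NDUFB4 stretch the first run of capitals holds 2 overlapping matches on opposite strands, and a further match follows downstream.

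The ETS motif CCGGAAG, the core bound by GABP, was found at 24 of the 82 genes (29.3%) against 21.1% of other promoter genes. It is in capitals in 2 stretches, chosen in the same way.
SDHB, chr1:17054129-17054185, minus strand: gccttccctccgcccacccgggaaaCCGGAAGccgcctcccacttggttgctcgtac
UQCRQ, chr5:132866563-132866598, plus strand: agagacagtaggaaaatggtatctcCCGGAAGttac
In the SDHB stretch the motif begins 128 bases before the canonical start, and in the UQCRQ stretch it begins 54 bases before it.

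The YY1 motif AAGATGGC was found at 15 of the 82 genes (18.3%) against 6.00% of other promoter genes. In 13 of these 15 genes it reached past the start into the transcribed part, as in 71.4% of the other promoter genes that held it, so none is shown. The NRF1 motif reached past the start in 4 of 25 genes and the ETS motif in 5 of 24. 1 or more of the 3 motifs were present at 52 of the 82 genes (63.4%), compared with 37.4% of other promoter genes.

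The other motifs stood as follows. The GC box GGGCGG, which SP1 binds, was found at 52 genes (63.4%) against 76.7% of other promoter genes. The CCAAT box CCAAT was found at 31.7% against 36.2%, the E-box CACGTG at 8.54% against 10.3%, and the CRE TGACGTCA at 6.10% against 3.54%. GAAANNGAA, a shortened form of the element bound after interferon, was found at 6 genes (7.32%) against 6.08%. The motifs also differed between complexes: the NRF1 motif was found at 5 of 8 complex III genes, 9 of 39 complex I genes and 2 of 12 complex IV genes, and the YY1 motif at 9 of 39 complex I genes and 0 of 12 complex IV genes. In the central 1000 bp of the peak the NRF1 motif was found at 37.8% of the 82 genes against 22.8% and the YY1 motif at 25.6% against 10.0%, while the ETS motif was near the other genes at 35.4% against 32.8%. These are letter matches and not measurements of binding, and each complex is a small group of genes.

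**Figure D1:**
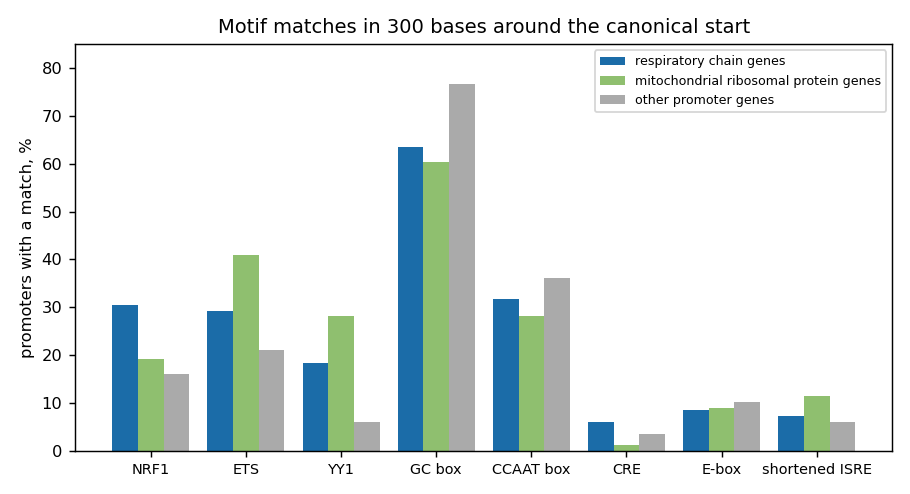
Share of promoters (%, vertical axis) with a match to each motif in the 300 bases around the canonical start, for the 82 respiratory chain genes (blue), 78 mitochondrial ribosomal protein genes (green) and 11649 other promoter genes (gray). The NRF1 bar of the respiratory chain genes stands at 30.5% against 16.1% for the other genes, and the YY1 bar at 18.3% against 6.00%.

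The signal values are the authors' means per group, given as the log2 of normalized reads per peak. They carry no value per library, so no spread between libraries can be given and no test between the groups was possible. Instead, a rough counting error is given for the differences, which treats the normalized reads as reads counted in 2 libraries a group and covers counting error only. The whole table was lower after IFN-β: the median difference, IFN-β minus control, was -0.69 over all 20087 peaks, and the signal summed over all peaks was 876825 normalized reads in control and 540427 after IFN-β. No outside standard was used here, so a lower signal in all cells and a difference between libraries cannot be told apart, and the differences of the respiratory chain genes are read against this offset. Of 10 interferon response genes, 9 had a peak at a start and 6 had a difference above 0, with IFI6 at 3.36 in control and 5.30 after IFN-β. Of 12 colon epithelium markers 6 had a peak, among them EPCAM, KRT19 and CDX2, while VIL1, CDX1, LGALS4, HNF4A, GPA33 and CDH17 had none. Of 10 markers of other cell types, COL1A1 alone had a peak.

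A peak was found at 82 of the 89 respiratory chain genes (92.1%), compared with 58.5% of all 20046 protein-coding genes. All 39 genes of complex I and all 4 of complex II had a peak, as did 8 of 9 in complex III, 12 of 17 in complex IV and 19 of 20 in complex V. The 7 genes without a peak were COX4I2, COX6A2, COX7A1, COX7B2, COX8C, UQCRHL and ATP5MGL. COX4I2 is known as a lung isoform of a complex IV subunit, COX6A2 and COX7A1 as isoforms of heart and skeletal muscle, and COX7B2 and COX8C as testis isoforms, while UQCRHL and ATP5MGL are close copies of UQCRH and ATP5MG. The nearest peak center lay 5016 bp from a start of ATP5MGL and 554292 bp from a start of COX7B2, with the other 5 genes between these distances. All 7 belonged to a list of 9 isoforms of restricted tissues and copies of other genes, whose remaining 2 genes were COX6B2 and NDUFA4L2. The 80 respiratory chain genes outside this list all had a peak. The list was made with earlier results of these data known, so this split is a description and not a test.

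COX6B2, the testis isoform of a complex IV subunit, and NDUFA4L2, a copy of NDUFA4 known to be induced by hypoxia, had the lowest control signals of the 82 genes. COX6B2 (chr19:55353540-55354540) stood at 3.05 in control and 2.21 after IFN-β, or 8.28 and 4.63 reads. NDUFA4L2 (chr12:57239720-57240720) stood at 2.32 and 2.51, or 4.99 and 5.70 reads, and the center of its peak lay 3116 bp before its canonical start, near the start of another transcript. Both lay far below the next gene, NDUFV1, at 4.59.

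In control cells the 82 genes had a median signal of 5.92 (quartiles 5.46 and 6.31), which is 60.5 reads per peak. The median of the other promoter genes was 5.66 (quartiles 4.90 and 6.27), or 50.6 reads. The respiratory chain genes were thus 0.26 higher at the median on the log2 scale and also less spread, with an SD across genes of 0.76 against 1.17. Of the 82 genes, 56 (68.3%) lay above the median of the other genes. At or above the upper quartile of the other genes lay 22 of 82, against 2935 of the 11649 other genes. At or below their lower quartile lay 6 of 82, against 2916 of 11649. The 2 sets thus differed mainly among low signals, since the upper quartiles of 6.31 and 6.27 were close. After IFN-β the medians were 5.12 and 4.92, a gap of 0.20. Of the 82 peaks, 77 were exactly 1000 bp wide, and per kb of peak the control medians were 5.88 and 5.56.

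The complexes differed in control signal. Complex V had the highest median at 6.32, with 16 of 19 genes above the median of the other promoter genes and 11 above their upper quartile. Complex III followed at 6.17, with all 8 genes above that median. Without genes whose peak spans another start, this order turned, with 6.03 in complex V and 6.11 in complex III. Complex I had a median of 5.80, complex IV of 5.67 and complex II of 5.57. The order of complexes I, IV and II rests on small gaps compared with the SD across genes of 0.77 in complex I, 1.01 in complex IV and 0.57 in complex II. These SDs describe single genes and not medians, and the order was not tested.

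**Figure D2:**
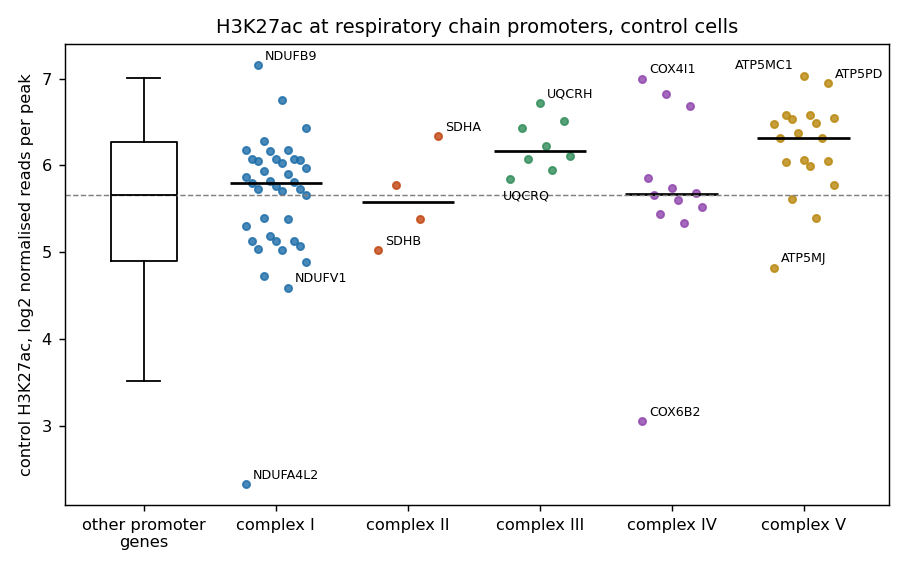
Control H3K27ac signal (vertical axis, log2 normalized reads per peak, the authors' group mean) of each respiratory chain gene, by complex. Each point is a gene, the bars are medians, the box holds the median and quartiles of 11649 other promoter genes with whiskers at the 5th and 95th percentiles, and the dashed line is their median of 5.66. Most complex V points lie above the line, around a median of 6.32, and NDUFA4L2 at 2.32 and COX6B2 at 3.05 lie apart.

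After IFN-β the respiratory chain genes were lower by about as much as other promoters. Their median difference was -0.84 (quartiles -0.96 and -0.68), or 0.559 times the control signal. The median over the other promoter genes was -0.76 (quartiles -0.94 and -0.57), or 0.590 times. The gap of -0.08 is small beside the SD of 0.28 across the 82 genes and beside their median rough counting error of 0.22. Both describe single genes and not how precisely a median is known, and the gap was not tested. Of the 82 genes, 50 lay below the median of the other promoter genes.

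A difference of -1 or lower was found at 18 of the 82 genes (22.0%), against 18.7% of all 11731 protein-coding genes with a peak. A difference above 0 was found at 1 gene (1.22%) against 2.09%. Both shares were near the background. After subtraction of the median of all peaks, 0 genes lay at or below -1 and 22 lay above 0. Shares of the other promoter genes after this subtraction are not given here, so these counts show no excess or lack. The difference lay more than 0.5 below the promoter median at 2 genes (background 3.73%) and more than 0.5 above it at 3 genes (background 5.75%). It departed from the promoter median by more than 2 rough counting errors at 5 of the 82 genes (6.10%) against 7.52% of the other promoter genes.

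**Figure D3:**
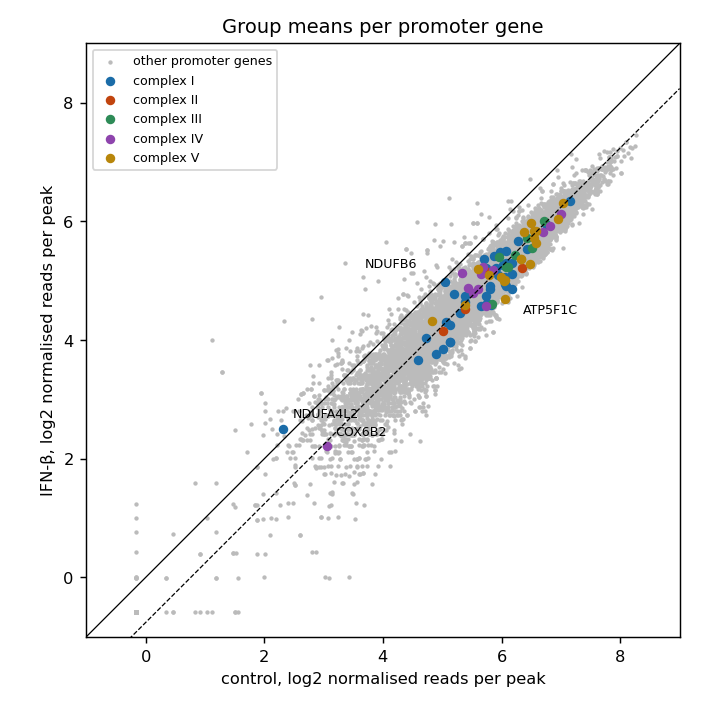
Signal after IFN-β (vertical axis) against signal in control (horizontal axis), both in log2 normalized reads per peak as the authors' group means. Gray points are 11649 other promoter genes and colored points the 82 respiratory chain genes by complex, the solid line is equality, and the dashed line is the promoter median difference of -0.76. The colored points follow the dashed line, NDUFA4L2 with a difference of 0.19 lies above equality, and NDUFB6 with -0.06 lies just under it.

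Complex I, the NADH dehydrogenase, had a median difference of -0.84 over 39 genes. Of these, 11 lay at or below -1 (28.2%), against 18.7% of all protein-coding genes with a peak. NDUFC2 and its read-through gene, which share a peak, are both among the 11. In the NADH-oxidizing arm (8 genes) the median control signal was 5.63 and the median difference -0.83. NDUFV1 (chr11:67606640-67607640), which binds FMN and NADH, stood at 4.59 in control and 3.66 after IFN-β, a difference of -0.93 with a rough counting error of 0.35. NDUFS1, the largest iron-sulfur subunit, stood at 6.43 and 5.53, a difference of -0.90. Its peak (chr2:206159693-206160693) is 1000 bp wide and centered 749 bp before the canonical start and 684 bp from the nearest NDUFS1 start. It thus holds no start of NDUFS1, but spans the start of EEF1B2, a translation elongation factor gene on the other strand. NDUFV2, another iron-sulfur subunit, had a difference of -1.06, and NDUFA2, an accessory subunit of this arm, -1.17.

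The quinone-reducing arm (8 genes) had a median control signal of 5.79 and a median difference of -0.89. Of its 8 genes, 4 lay at or below -1, against 18.7% of all protein-coding genes with a peak. The arm is a small group of genes, and this count was not tested. NDUFA6, an accessory subunit that holds the acyl carrier protein, had the lowest difference in complex I: its peak (chr22:42090078-42091078) stood at 6.18 in control and 4.87 after IFN-β, or 72.5 and 29.2 reads. This difference of -1.31, with a rough counting error of 0.22, was at percentile 2.85 of the other promoter genes. The accessory subunits NDUFA7 and NDUFA5 had differences of -1.16 and -1.12. NDUFS8, an iron-sulfur subunit of the same arm, had a difference of -0.34, so genes of the arm spread from -1.31 to -0.34.

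The proximal part of the membrane arm (9 genes) had a median control signal of 5.82 and differences from -1.22 to -0.49 around a median of -0.87, with NDUFA11 at -1.22 and NDUFC2 at -1.16. The distal part (11 NDUFB genes) had a median control signal of 5.81 and differences from -1.13 to -0.06 around a median of -0.84, with NDUFB4 at -1.13 and NDUFB10 at -1.11. NDUFB9, an accessory subunit of the distal part, had the highest control signal of all 82 genes, 7.16 in control and 6.35 after IFN-β, a difference of -0.81. Its peak (chr8:124538620-124539620) also spans the start of TATDN1, a nuclease gene on the other strand.

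NDUFB6, also of the distal part, departed upwards. Its peak (chr9:32572716-32573716) stood at 5.04 in control and 4.98 after IFN-β, or 32.9 and 31.6 reads. The difference of -0.06, with a rough counting error of 0.25, was 0.70 above the promoter median and at percentile 97.3 of the other promoter genes. NDUFA4L2 had the 1 difference above 0 among the 82 genes, 0.19, but with a rough counting error of 0.63 on about 5 reads. For NDUFV3, the peak with the highest signal spans the start of WDR4 and had a difference of -0.77. Its center lay 344 bp from the start of another NDUFV3 transcript and 14009 bp before the canonical start. The peak centered 323 bp after the canonical start of NDUFV3 (chr21:42893132-42894132) stood at 5.19 in control and 4.77 after IFN-β, a difference of -0.42.

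Complex II, the succinate dehydrogenase, is also an enzyme of the citric acid cycle, and its 4 genes had a median difference of -0.85. SDHA, the flavoprotein subunit that oxidizes succinate, had the highest control signal of the complex. Its peak (chr5:218072-219072), which holds the 3 NRF1 motifs shown above, stood at 6.34 in control and 5.21 after IFN-β, a difference of -1.13 with a rough counting error of 0.20. SDHA has near-identical partial copies in the genome, so its reads may have been split in a way that is not known here, and its peak also spans the start of CCDC127. SDHB, the iron-sulfur subunit, had the lowest control signal, 5.02, and 4.16 after IFN-β (chr1:17053257-17054257, difference -0.86). SDHC and SDHD anchor the complex in the membrane. SDHC stood at 5.38 and 4.53, and SDHD at 5.77 and 5.15, with differences of -0.85 and -0.62. The rough counting errors of the 4 differences ran from 0.20 to 0.30, and the differences from -1.13 to -0.62.

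Complex III, the cytochrome bc1 complex, had a narrow range of control signals, from 5.84 at UQCRQ to 6.72 at UQCRH, and a median difference of -0.81. The 1000 bp peak of UQCRH is centered 718 bp before its start, so it holds no start of UQCRH. It spans the start of LRRC41 on the other strand. UQCRFS1, the Rieske iron-sulfur protein (chr19:29212347-29213347), stood at 6.22 in control and 5.44 after IFN-β, a difference of -0.78. UQCRC1, a core protein, stood at 6.11 and 5.24, a difference of -0.87. UQCRQ, a small subunit next to cytochrome b, had the lowest difference of the complex. Its peak (chr5:132866385-132867385), which also spans the start of the growth factor gene GDF9, stood at 5.84 and 4.61, or 57.3 and 24.4 reads, a difference of -1.23. The highest difference was -0.55 at UQCR10, from 5.95 to 5.40. CYC1, the cytochrome c1 gene of the same complex, falls outside the symbols used and stood at 7.28 and 6.40, a difference of -0.88.

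Complex IV, the cytochrome c oxidase, had the highest median difference of the complexes, -0.73 over 12 genes. Of these, 1 lay at or below -1 (8.33%, background 18.7%). Without genes whose peak spans another start, complex IV stayed at -0.73 and complex V was higher, at -0.71. COX4I1, the ubiquitous form of its largest nuclear-encoded subunit, had the highest control signal of the complex. Its peak (chr16:85799500-85800500), shared with the start of EMC8, stood at 7.0 in control and 6.12 after IFN-β, a difference of -0.88 with a rough counting error of 0.15. COX5A stood at 6.69 and 5.82, a difference of -0.87. COX7B, an accessory subunit encoded on the X chromosome, had the lowest difference: its 1869 bp peak (chrX:77898505-77900374) stood at 5.74 and 4.58, a difference of -1.16.

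COX6A1, the ubiquitous isoform of a regulatory subunit, had the highest difference of complex IV. Its peak (chr12:120437075-120438718), which holds the NRF1 motif shown above, stood at 5.34 in control and 5.13 after IFN-β, or 40.5 and 35.0 reads. The difference was -0.21 with a rough counting error of 0.24, at percentile 95 of the other promoter genes. This peak is 1643 bp wide and its control signal per kb was 4.62.

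ATP synthase, complex V, had a median difference of -0.82 over 19 genes, with 4 genes at or below -1 (21.1%, background 18.7%). The catalytic head (5 genes) had a median control signal of 6.49 and a median difference of -0.82. ATP5F1A and ATP5F1B encode its alpha and beta subunits, which form the catalytic sites. ATP5F1A (chr18:46097662-46098662) stood at 6.54 in control and 5.72 after IFN-β, a difference of -0.82. ATP5F1B (chr12:56645395-56646395) stood at 6.49 and 5.98, a difference of -0.51.

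ATP5F1C, the gamma subunit that turns inside the head, had the lowest difference of all 82 genes. Its peak (chr10:7787871-7788871) stood at 6.05 in control and 4.70 after IFN-β, or 66.3 and 26.0 reads. The difference of -1.35, with a rough counting error of 0.24, was at percentile 2.37 of the other promoter genes. The peak also spans the start of KIN, a DNA-binding protein gene on the other strand, and the signal cannot be divided between both starts.

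The c-ring, the rotor in the membrane, is encoded by 3 genes for the same mature protein, and these had a median control signal of 6.06 and a median difference of -0.72. ATP5MC1 stood at 7.03 in control, the highest of the complex, and 6.31 after IFN-β, but its peak is 1949 bp wide and its control signal per kb was 6.07. ATP5MC3 stood at 6.06 and 5.01, a difference of -1.05. The stalk and the rest of the membrane part (9 genes) had a median control signal of 6.37 and a median difference of -0.91. Among them ATP5PD, a stalk subunit, had the highest control signal of a 1000 bp peak in the complex, 6.95, and ATP5MJ the lowest signal, 4.82. ATP5MG and ATP5PB had differences of -1.20 and -1.05, while ATP5PO, which links stalk and head, had the highest of the complex, -0.41. ATP5IF1, the inhibitor of ATP hydrolysis by the enzyme, stood at 5.39 and 4.59, a difference of -0.80.

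**Figure D4:**
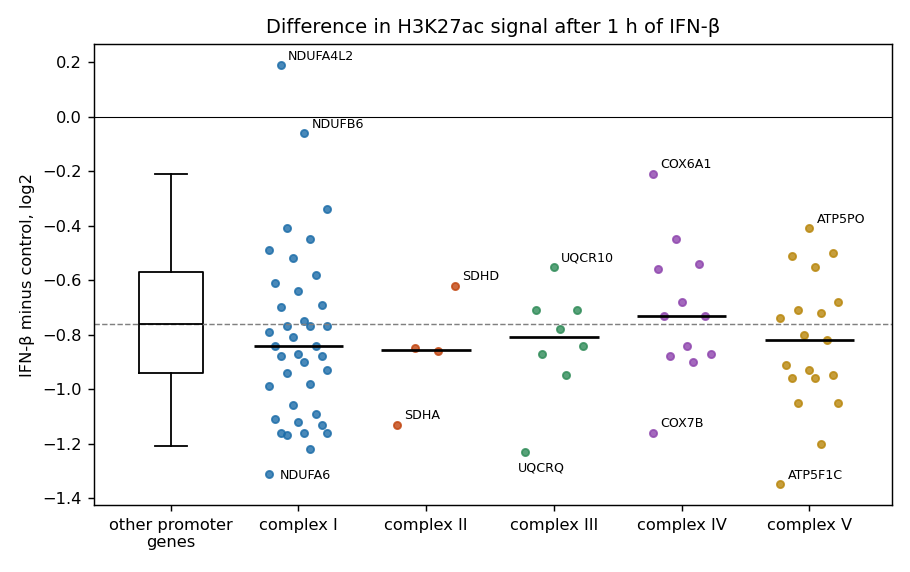
Difference in H3K27ac signal (vertical axis, IFN-β minus control, log2, from the authors' group means) of each respiratory chain gene, by complex. Points are genes, bars are medians, the box holds the median and quartiles of 11649 other promoter genes with whiskers at the 5th and 95th percentiles, and the dashed line is their median of -0.76. The complex medians lie between -0.85 and -0.73, and the points of each complex lie on both sides of the dashed line.

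The medians of the 5 complexes thus lay close together, between -0.85 in complex II and -0.73 in complex IV, while the quartiles of complex I alone ran from -1.08 to -0.67. Relative to the median of all peaks they were -0.15 for complex I, -0.17 for complex II, -0.12 for complex III, -0.04 for complex IV and -0.13 for complex V.

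The peaks of respiratory chain genes differed from other promoter peaks in base composition. The median GC content of the central 1000 bp was 58.5%, against 64.5% for the other promoter genes, and the ratio of observed to expected CpG was 0.745 against 0.792. When all promoter genes were divided at GC contents of 60.8% and 68.1% into 3 parts of like size, 49 respiratory chain genes fell in the part of low GC, 28 in the middle and 5 in the high part. In the low part their median difference was -0.81 against -0.70 for the other genes, in the middle -0.85 against -0.76, and in the high part -0.91 against -0.82. The gap to the other genes was therefore -0.11 in the low part and -0.09 in the middle and high parts, close to the -0.08 over all GC contents, and both sets of genes had lower differences where GC was higher. The control signal was also higher than that of other genes in each part, at 5.78 against 5.48, 6.04 against 5.66, and 6.58 against 5.86.

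Division by mean signal gave a less even picture. Of the respiratory chain genes, 12 fell in the part of low signal, 42 in the middle and 28 in the high part. In the low part the medians were -0.87 and -0.70, in the middle -0.79 and -0.75, and in the high part -0.84 and -0.80. The gap to other genes was thus -0.17 on 12 genes of low signal and -0.04 in the middle and high parts.

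**Figure D5:**
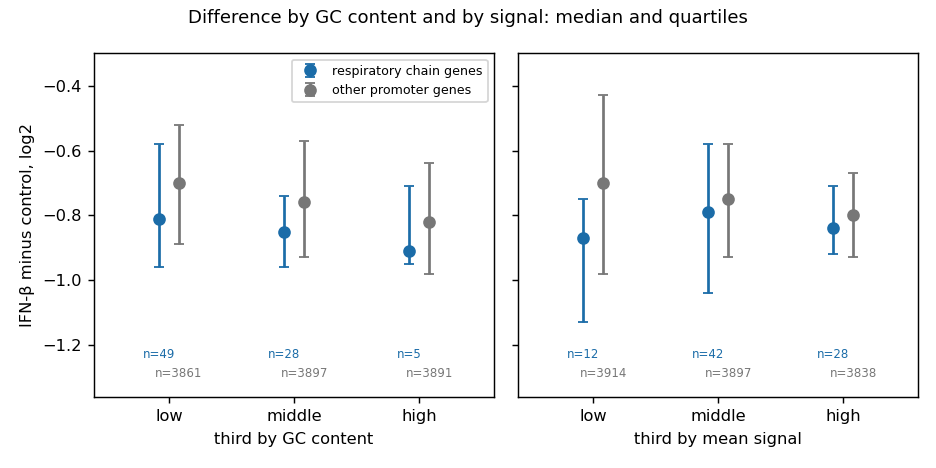
Median difference (points, vertical axis, IFN-β minus control, log2) with quartiles (bars) of respiratory chain genes (blue) and other promoter genes (gray) in 3 parts of GC content (left) and of mean signal (right); n is the number of genes. Blue lies under gray in all parts, with gaps of -0.11, -0.09 and -0.09 for GC content, and the bars overlap throughout.

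Many of these peaks also covered the start of another gene. The peak spanned a start of another protein-coding gene in 38 of the 82 genes (46.3%), compared with 26.9% of the other promoter genes. This count includes the read-through pairs of NDUFC2 and ATP5MF and genes with no symbol. In 28 of them a named neighbor was transcribed in the opposite direction. The neighbor was a gene of the mitochondrial or cytosolic ribosome at NDUFB5 (MRPL47), NDUFS6 (MRPL36) and NDUFA7 (RPS28), a mitochondrial import gene at SDHD (TIMM8B), and GABPA, a subunit of the factor GABP itself, at ATP5PF. The shared ATP5PF and GABPA peak (chr21:25734978-25735978) stood at 6.58 in control and 5.84 after IFN-β, a difference of -0.74.

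The genes with such a neighbor had a higher control signal than the genes whose peak held no other start. The medians were 6.06 over 28 genes and 5.79 over 44 genes, and the median differences were -0.85 and -0.78. Among the 44 genes, 7 had a difference at or below -1 (15.9%, background 18.7%). Thus 11 of the 18 genes at or below -1 shared their peak with another start, compared with 38 of all 82 genes (46.3%). The 11 include NDUFC2 and its read-through gene, which have the same peak. Whether a shared start goes with a lower difference was not tested.

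Genes with an ETS motif had a higher control signal than those without, 6.33 over 24 genes against 5.81 over 58. Among other promoter genes the medians with and without the motif were 5.71 and 5.64. Some respiratory chain genes with the motif, such as NDUFB9, COX4I1, UQCRH and NDUFS1, also share their peak with a neighbor on the other strand. Others, such as COX5B and SDHB, do not. Whether the control signal goes with the motif or with the neighbor was not tested. The median differences of the respiratory chain genes after IFN-β were -0.81 with and -0.84 without the ETS motif. For the NRF1 motif the control medians were 5.86 with and 5.97 without it, and the differences -0.77 and -0.84. For the YY1 motif the control medians were 5.90 and 5.95, and the differences -0.84 and -0.84. All of these gaps between differences were small beside the SD of 0.28 across the 82 genes. This SD describes single genes and not medians, and the gaps were not tested.

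Further genes of the pathway, which the symbols do not cover, had values in the same range. All listed assembly factors of the complexes had a peak. Those of complex I (15 genes) had a median control signal of 5.57 and a median difference of -0.79. Of these, 2 lay at or below -1 (13.3%, background 18.7%). Those of complex IV (13 genes) had 5.57 and -0.64. COX11, which delivers copper, was at -1.19 as the 1 gene at or below -1 (7.69%). The median differences were -0.88 for complex II (4 genes), -0.72 for complex III (6 genes) and -0.79 for complex V (3 genes). Of the electron carrier and subunit genes outside the symbols, CYCS, which encodes cytochrome c, stood at 6.34 in control and 5.28 after IFN-β, a difference of -1.06. NDUFAB1, the acyl carrier protein, stood at 5.73 and 5.10, a difference of -0.63.

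The regulators of these genes and the genes for upkeep of mitochondrial DNA carried a high signal. Of 14 listed genes 13 had a peak, with a median control signal of 6.16 and a median difference of -0.75. At or below -1 lay 0 of them (background 18.7%). NRF1 stood at 6.73 in control and 6.02 after IFN-β, YY1 at 6.75 and 5.94, and TFAM, which packs mitochondrial DNA, at 5.72 and 4.92. Their differences were -0.71, -0.81 and -0.80. PPARGC1A, a coactivator of mitochondrial biogenesis, had no peak within 1 kb of a start, while its relatives PPARGC1B and PPRC1 stood at 5.28 and 7.19 in control.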

How the data were processed

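H3K27ac ChIP-seq libraries (2 control, 2 IFN-β) and 1 input were prepared by the authors, who trimmed reads with fastp (0.19.3 per the submitters' processing notes), aligned them to GRCh38 with Bowtie2, called peaks with MACS2 against the input, and merged and counted peaks with DiffBind, with DESeq2 run inside it. The deposited table gives, for each peak, the log2 of its normalized reads averaged by the authors over all libraries and over each group. Its fold-change, p-value and FDR columns are the authors' comparison and were not used. No library depth is in the table, and the number of reads per peak limits the precision.

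The 24 primary chromosomes matched the reference by name and held all their peaks. Differences were computed as IFN-β minus control from the group columns. Genes came from GENCODE release 44, motifs were matched letter by letter, and the rough counting error is the Poisson error of the normalized reads. Python 3.11.15, numpy 2.4.6, pandas 2.3.3 and matplotlib 3.10.9 were used, and the peak-to-gene step was tested on made-up peaks. Printed stretches hold no annotated exon. Genes were named for the highest and lowest values of each complex, differences above 0, at or below -1 or over 0.5 from the promoter median, a missing or shared peak, or a core role; NDUFS8, SDHC, COX11 and genes named as neighbors or by list were added after their values were seen. A gene under this rule is not reported here. Genes, lists and comparisons were chosen with earlier results of these data known. Alternatives changed the distance, the transcript starts, the peak per gene, the genes included, the offset, the motif window and, after the data were seen, the scaling by peak width.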

Additional observations from a re-analysis of the deposited data

How the results depend on the processing

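No library could be left out in turn. No paired analysis was possible because only group means are in the table. Of 133 recomputed medians of signal and difference and counts of genes, the motif shares apart, 110 stayed within 0.1 on the log2 scale or within 1.5 times a count, and 0 changed sign. Counts and control medians of this size could not change sign. Moving NDUFA4 could change only complexes I and IV, so part of this tally was fixed in advance. Without the genes whose peak spans another start, the median control signal was 5.79 over all genes, 5.20 in complex II, 6.11 in complex III and 6.03 in complex V, the median difference of complex V was -0.71, and 7 genes lay at or below -1. With differences centered on the median of all peaks or on the summed signal, the median difference was -0.15 or -0.14 over all genes, -0.15 or -0.14 in complex I, -0.17 or -0.16 in complex II, -0.12 or -0.11 in complex III, -0.04 or -0.03 in complex IV and -0.13 or -0.12 in complex V. With this centering 0 and 0 genes lay at or below -1, and 22 and 23 lay above 0, which follows from the offset of the table. The same counts for the other promoter genes are not given here. With canonical starts only, or without the isoforms of restricted tissues and the read-through genes, 0 genes lay above 0, since NDUFA4L2 was then left out. In the central 1000 bp of the peak, a longer window, the GC box was found at 87.8% of the genes against 93.0% of other promoter genes, the CCAAT box at 54.9% against 58.1% and the E-box at 22.0% against 21.5%. The shortened interferon motif stood there at 14.6% against 18.8%, the other way round than in the promoter window. With NDUFA4 counted under complex IV, the control medians were 5.79 in complex I and 5.68 in complex IV. The median differences stayed at -0.84 and -0.73. Low read numbers limit NDUFA4L2 and COX6B2 most.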

Other observations

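Other large sets of housekeeping genes, chosen after the data were seen, had values near those of the respiratory chain. Cytosolic ribosomal protein genes (81 of 87 with a peak) had a median control signal of 6.35, above the 5.92 of the respiratory chain, and a median difference of -0.80. Mitochondrial ribosomal protein genes (78 of 78) had 5.76 and -0.80, and proteasome subunit genes (37 of 40) had 6.01 and -0.78. Their median GC contents were 57.9%, 58.4% and 57.7%, near the 58.5% of the respiratory chain genes. Motif shares are given for cytosolic ribosomal, mitochondrial ribosomal and proteasome genes in this order. The NRF1 motif was found at 17.3%, 19.2% and 13.5%, against 30.5% of respiratory chain genes. The ETS motif was found at 37.0%, 41.0% and 37.8%, all above the 29.3% of respiratory chain genes. For the YY1 motif the shares were 13.6%, 28.2% and 16.2%, on both sides of the 18.3% of respiratory chain genes.

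The 3 respiratory chain genes of the X chromosome, NDUFA1, NDUFB11 and COX7B, had a median control signal of 5.39 and a median difference of -0.84. The 351 other promoter genes of this chromosome had medians of 4.66 and -0.76. The 11 respiratory chain genes of chromosome 19 had a median difference of -0.78, against -0.79 for 866 other genes there.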
